A study of Homo sapiens with 3 samples.

Results

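The genes described here come from the KRAB zinc finger clusters on the short arm of human chromosome 19. They are a list of 56 genes chosen by symbol, on 58 of the 57268 identifiers of the deposited gene table. Another 29 genes named ZNF with a number lie on this arm and are not in the list. The proteins were not searched for a KRAB domain. In cytogenetic order 32 symbols belong to a block at 19p12 with the adjoining part of 19p13.11, and 24 belong to a block at 19p13.2. The human cell line HEK293T, a derivative of embryonic kidney cells, was sequenced as 3 RNA libraries, 1 for each group. The first group overexpressed both SRSF9, an SR-type splicing factor, and ADAR2, the product of ADARB1, which converts adenosines of double-stranded RNA into inosines. The second group overexpressed ADAR2 alone, and the control group had no overexpression. The sources used here do not say how the proteins were overexpressed or when the cells were harvested. The study asked how SRSF9 affects RNA editing at target sites of ADAR2, whereas the table used here holds read counts per gene.

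KRAB zinc finger proteins bind DNA through a row of C2H2 zinc fingers, each a short loop held around a zinc ion by a pair of cysteines and a pair of histidines. Their KRAB domain recruits TRIM28 (KAP1), a scaffold for the histone methyltransferase SETDB1 and for HP1 proteins, and the bound locus is silenced. The 19p clusters grew largely by tandem duplication in primates, and some of the genes are close copies of each other. Several of the proteins are known to silence retrotransposons.

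The repeated building block is seen in single finger units of the coding sequence, shown for the highest gene of each block, for ZNF91 and for ZNF441, the gene with the largest ratio described below. Each unit runs for 84 bases from the first cysteine codon through the linker to the next finger, in the GENCODE v29 transcript, and the capitals mark the codons of the 4 zinc ligands.
ZNF91: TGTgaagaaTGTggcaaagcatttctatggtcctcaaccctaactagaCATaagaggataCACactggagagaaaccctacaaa
ZNF714: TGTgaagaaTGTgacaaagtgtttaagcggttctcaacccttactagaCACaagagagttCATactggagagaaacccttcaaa
ZNF441: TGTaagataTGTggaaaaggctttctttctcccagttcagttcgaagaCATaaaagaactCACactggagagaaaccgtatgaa
ZNF791: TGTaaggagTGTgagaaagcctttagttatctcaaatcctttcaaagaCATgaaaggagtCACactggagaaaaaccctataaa
By a letter pattern for the C2H2 motif in translated GENCODE coding sequence, the members held between 6 and 36 fingers, with a median of 13. ZNF208 had the most with 36, followed by ZNF91 with 31 and ZNF99 with 25.

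Total counts were 97875935 reads in the ADAR2 plus SRSF9 library, 132887974 in the ADAR2 library and 152878282 in the control library. With 1 library in each group no difference has a replicate check, and no p-value is given. Levels are reads per 1000000 library reads (CPM) after TMM scaling, which sets aside genes with extreme ratios, or CPM per kilobase of merged exons (RPKM) where genes are compared with each other. Each ratio carries a 95% interval for counting error only, so that an interval excluding 1 separates these libraries and not the conditions. The labels held for the overexpressed genes. ADARB1 had 1308303 reads in the ADAR2 plus SRSF9 library and 2161556 in the ADAR2 library, against 17547 in the control library. In CPM this was 13647, 16100 and 114, with a ratio of ADAR2 plus SRSF9 to ADAR2 of 0.848 (0.846 to 0.850). These libraries therefore differ in ADARB1 as well as in SRSF9. SRSF9 had 1753179 reads in the ADAR2 plus SRSF9 library, against 49544 in the ADAR2 library and 57545 in the control library. All 9 HEK293 marker genes, VIM and LHX1 among them, had a mean of at least 1 CPM, as did COL1A1 of 5 fibroblast markers and 0 of 5 markers of other epithelial lines. The blood markers CD14 and HBA1 reached 1 CPM as well. The leukocyte marker PTPRC and the T cell marker CD3E were below 1 CPM.

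Of the 58 identifiers, 28 reached a mean of 1 CPM over the 3 libraries, and these are called measured below. They comprise 17 genes of the 19p12 block and 11 of the 19p13.2 block, and only 6 reached 10 CPM, 5 in 19p12 and 1 in 19p13.2. The members just under the limit were ZNF442 with 0.536 CPM and ZNF66 with 0.519 CPM, and those just over it were ZNF492 with 1.26 CPM and ZNF506 with 1.60 CPM. The limit thus falls in a gap between the members and splits no dense group of them. Of other protein-coding loci whose symbol does not begin with ZNF and a digit, 1 lay within the 19p12 block and 6 within the 19p13.2 block. Of these, 0 were measured. The choice by symbol can admit clone-named loci that overlap zinc finger genes, so these loci need not be other kinds of gene.

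Per length, the 19p12 gene ZNF714 and the 19p13.2 gene ZNF791 stood at the top, at nearly the same level. ZNF714 had 3.68 RPKM in the ADAR2 plus SRSF9 library, 3.75 in the ADAR2 library and 4.45 in the control library. ZNF791 had 3.62 RPKM in the ADAR2 plus SRSF9 library, 4.13 in the ADAR2 library and 4.02 in the control library. Their order differed between libraries, with ZNF714 higher in the ADAR2 plus SRSF9 and control libraries and ZNF791 higher in the ADAR2 library. In 19p12 they were followed by ZNF430, ZNF101, ZNF14 and ZNF708, with mean levels over the 3 libraries of 2.19, 1.99, 1.97 and 1.64 RPKM. In 19p13.2 the next were ZNF823, ZNF627, ZNF443 and ZNF440, with mean levels of 2.22, 1.95, 1.08 and 0.965 RPKM. The lowest measured members per length were ZNF506 with 0.190 RPKM and ZNF492 with 0.297 RPKM. ZNF91, known to repress SVA retrotransposons, averaged 0.367 RPKM, and ZNF675, known to bind the signalling adaptor TRAF6, averaged 1.22 RPKM.

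**Figure D1:**
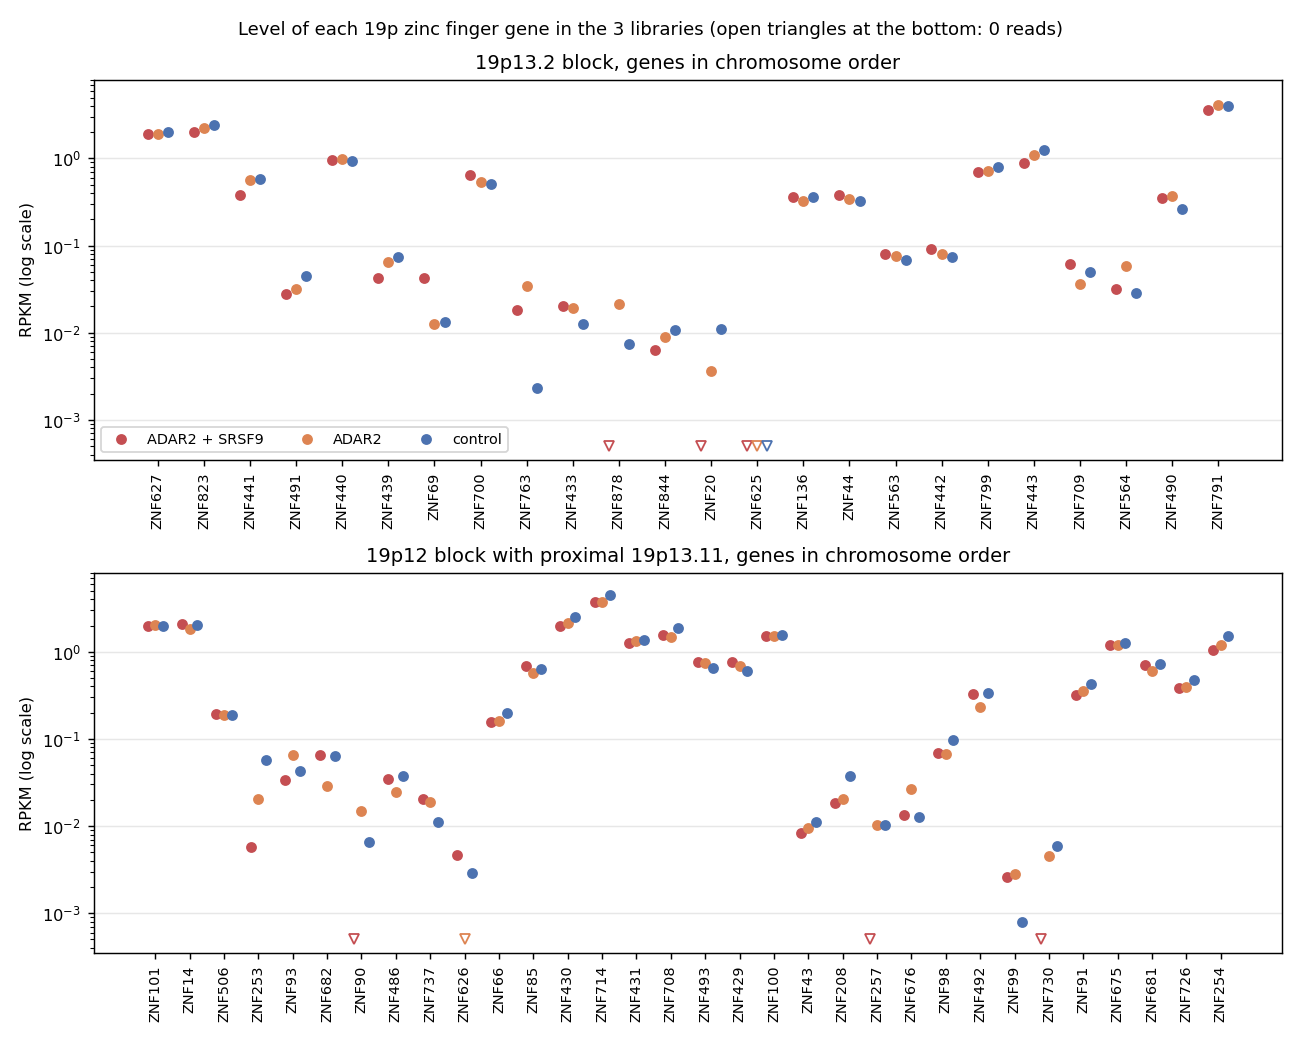
Level of each 19p zinc finger gene in RPKM on a log scale, with 1 point per library and the genes of each block in chromosome order. The libraries lie close together for the well expressed genes, led by ZNF714 and ZNF791, and scatter below about 0.1 RPKM, where each point rests on few reads.

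The other members lay under 1 CPM, most of them with few reads. The highest of them per length was ZNF66, with a mean of 0.172 RPKM, near the 0.190 RPKM of the measured ZNF506. ZNF93, known to repress L1 retrotransposons, had 18 reads in the ADAR2 plus SRSF9 library, 49 in the ADAR2 library and 37 in the control library. ZNF208, the gene with the most fingers, had 12, 19 and 40 reads in the ADAR2 plus SRSF9, ADAR2 and control libraries. ZNF43 had 7 reads in the ADAR2 plus SRSF9 library, 11 in the ADAR2 library and 15 in the control library. At this depth 3 reads correspond to 0.0313 CPM in the ADAR2 plus SRSF9 library, 0.0223 CPM with ADAR2 alone and 0.0194 CPM in the control library, and several members lay at or below that limit. ZNF625 had 0 reads in all 3 libraries, as had the second identifiers of ZNF709 and ZNF763. ZNF20, ZNF90, ZNF257, ZNF730 and ZNF878 had 0 reads in the ADAR2 plus SRSF9 library, with between 2 and 10 reads in each of the other libraries. ZNF626 had 3 reads in the ADAR2 plus SRSF9 library, 0 in the ADAR2 library and 3 in the control library. ZNF99 had 2 reads in the ADAR2 plus SRSF9 library, 3 in the ADAR2 library and 1 in the control library. ZNF763 had 5 and 13 reads in the ADAR2 plus SRSF9 and ADAR2 libraries, against 1 in the control library, and ZNF253 had 2 and 10 reads, against 32. Counts of this size give no usable ratio.

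The position of a member relative to other annotated genes went along with its level. In GENCODE v29, 8 identifiers had at least 40% of their exon bases covered by another gene on the same strand, among them annotated readthrough loci that join neighbouring genes. All 8 are in 19p13.2, and they belong to ZNF20, ZNF490, ZNF564, ZNF625, ZNF709 and ZNF763. Of these 8, 1 was measured (ZNF490) and their median level was 0.0115 RPKM, whereas 27 of the other 50 identifiers were measured and their median was 0.323 RPKM. The 8 include the second identifiers of ZNF709 and ZNF763, which in GENCODE v29 are loci that overlap those genes and a neighbour. Both had 0 reads in all 3 libraries, which lowers the median, and they supply overlap of ZNF709 and ZNF763, so the 8 are not independent. Some counting programs discard reads that fall on 2 genes, and the program that counted these reads is not known from the labels or files. The readthrough locus ZNF625-ZNF20 itself had 0 reads in all 3 libraries. The locus that overlaps ZNF490 and ZNF564 (ENSG00000269693) had 37 reads in the ADAR2 plus SRSF9 library, 55 in the ADAR2 library and 66 in the control library. The part of the overlap in the low levels was not tested.

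**Figure D2:**
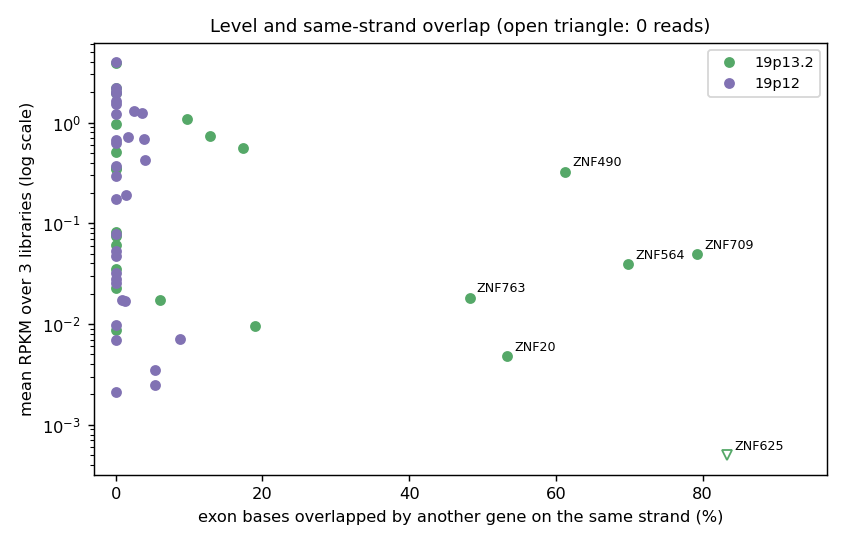
Mean level of each member over the 3 libraries (RPKM, log scale) against the share of its exon bases that another gene covers on the same strand. ZNF625, with 0 reads, is drawn at the bottom, and of the members at 40% or more only ZNF490 was measured.

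Summed over the family, the members took a slightly smaller share of the reads in both overexpressing libraries. All 58 identifiers together had 19519 reads, or 203.6 CPM, with ADAR2 plus SRSF9, 28148 reads, or 209.7 CPM, with ADAR2, and 34839 reads, or 225.5 CPM, in the control library. The ratio of ADAR2 to control was 0.930 (counting interval 0.915 to 0.945), that of ADAR2 plus SRSF9 to ADAR2 was 0.971 (0.954 to 0.989), and that of ADAR2 plus SRSF9 to control was 0.903 (0.887 to 0.919). In RNA from bulk cells, fewer cells with a transcript and less transcript in each cell cannot be told apart. The 19p12 block had 143.4 CPM in the ADAR2 plus SRSF9 library, 144.4 CPM with ADAR2 alone and 160.1 CPM in the control library, and its ratio of ADAR2 to control was 0.902 (0.885 to 0.919). The 19p13.2 block had 60.3, 65.2 and 65.4 CPM in the ADAR2 plus SRSF9, ADAR2 and control libraries, and its ratio of ADAR2 to control was 0.997 (0.969 to 1.03). The lower sum in the ADAR2 library thus lay in 19p12. Between the ADAR2 plus SRSF9 library and the ADAR2 library the 19p12 sum had a ratio of 0.993 (0.971 to 1.01), while the 19p13.2 sum had a ratio of 0.923 (0.893 to 0.955). Much of the 19p13.2 sum is 1 gene, ZNF791, with 24.0 CPM in the ADAR2 plus SRSF9 library, 27.4 with ADAR2 alone and 26.7 in the control library. Other zinc finger genes were taken here and below as those whose symbol is ZNF followed by a number. Those of the long arm of chromosome 19 summed to 1424 CPM in the ADAR2 plus SRSF9 library, 1431 in the ADAR2 library and 1376 in the control library. Their sum was higher in both overexpressing libraries than in the control. Those of other chromosomes summed to 6027 CPM in the ADAR2 plus SRSF9 library, 6006 with ADAR2 alone and 6116 in the control library, with ratios to control of 0.986 (0.982 to 0.989) for ADAR2 plus SRSF9 and 0.982 (0.979 to 0.985) for ADAR2.

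Across single genes the ADAR2 library differed little from the control. Of the 28 measured members, 0 lay at least 1.5-fold away from the control with an interval excluding 1, where 1.26% of all 16072 measured genes did. The median log2 ratio of ADAR2 to control was -0.11 over the members, against -0.00 over all measured genes, and 19 of 28 members were below 0, against 50.2% of all genes. The median was -0.15 in the 19p12 block and -0.03 in the 19p13.2 block. It was 0.06 over 125 zinc finger genes of 19q, -0.01 over 19 other zinc finger genes of 19p and -0.01 over 206 of other chromosomes. The interval lay wholly below 1 for 9 members, or 32.1%, against 32.4% of all genes. It lay wholly above 1 for 2 members, or 7.14%, against 31.5% of all genes. All 9 lower members are in 19p12, where they make up 9 of 17 genes. Intervals narrow with more reads, and the measured genes had a median of 7.10 CPM in 19p12, against 2.98 CPM in 19p13.2. The interval of ZNF443, in 19p13.2, ran from 0.771 to 1.002 and just included 1, at a log2 ratio of -0.19. ZNF14, in 19p12, had a log2 ratio of -0.15 and an interval from 0.818 to 0.997. The part of depth in this split by block was not tested.

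At a ratio of 5 to 4 or wider, 4 members were called, where 8.36% of all genes were called. They were 3 lower members (3.84% of all genes) and 1 higher member (4.52% of all genes). ZNF254 had 1211 reads in the ADAR2 library and 1772 in the control library, which is 1.19 against 1.51 RPKM and a log2 ratio of -0.35. ZNF708 had 850 reads in the ADAR2 library and 1258 in the control library, a log2 ratio of -0.36. ZNF492, discussed below for its close copy, had 131 reads in the ADAR2 library and 220 in the control library, a log2 ratio of -0.54 with a counting interval of the ratio from 0.548 to 0.855. The well expressed genes ZNF714 and ZNF430 were lower by less, with log2 ratios of -0.25 and -0.23. ZNF91 had 495 reads in the ADAR2 library and 679 in the control library, a log2 ratio of -0.25, and ZNF681 and ZNF726 had ratios of -0.26 and -0.25. Neighbours within the block did not share a direction, since ZNF493 and ZNF429, which follow ZNF708 along the chromosome, lay above 1. ZNF493 had 1107 reads in the ADAR2 library and 1125 in the more deeply sequenced control library, which is 0.735 against 0.649 RPKM and a log2 ratio of 0.18. ZNF429 had 468 and 474 reads, or 0.690 and 0.607 RPKM, in the ADAR2 and control libraries, with an interval of the ratio from 0.998 to 1.29. The member highest in ADAR2 against control was ZNF490, with 243 reads in the ADAR2 library, against 201 in the control library, a log2 ratio of 0.48 and a ratio of 1.39 (1.15 to 1.69). ZNF490 shares 61.3% of its exon bases with the overlapping locus described above, so its count is uncertain.

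**Figure D3:**
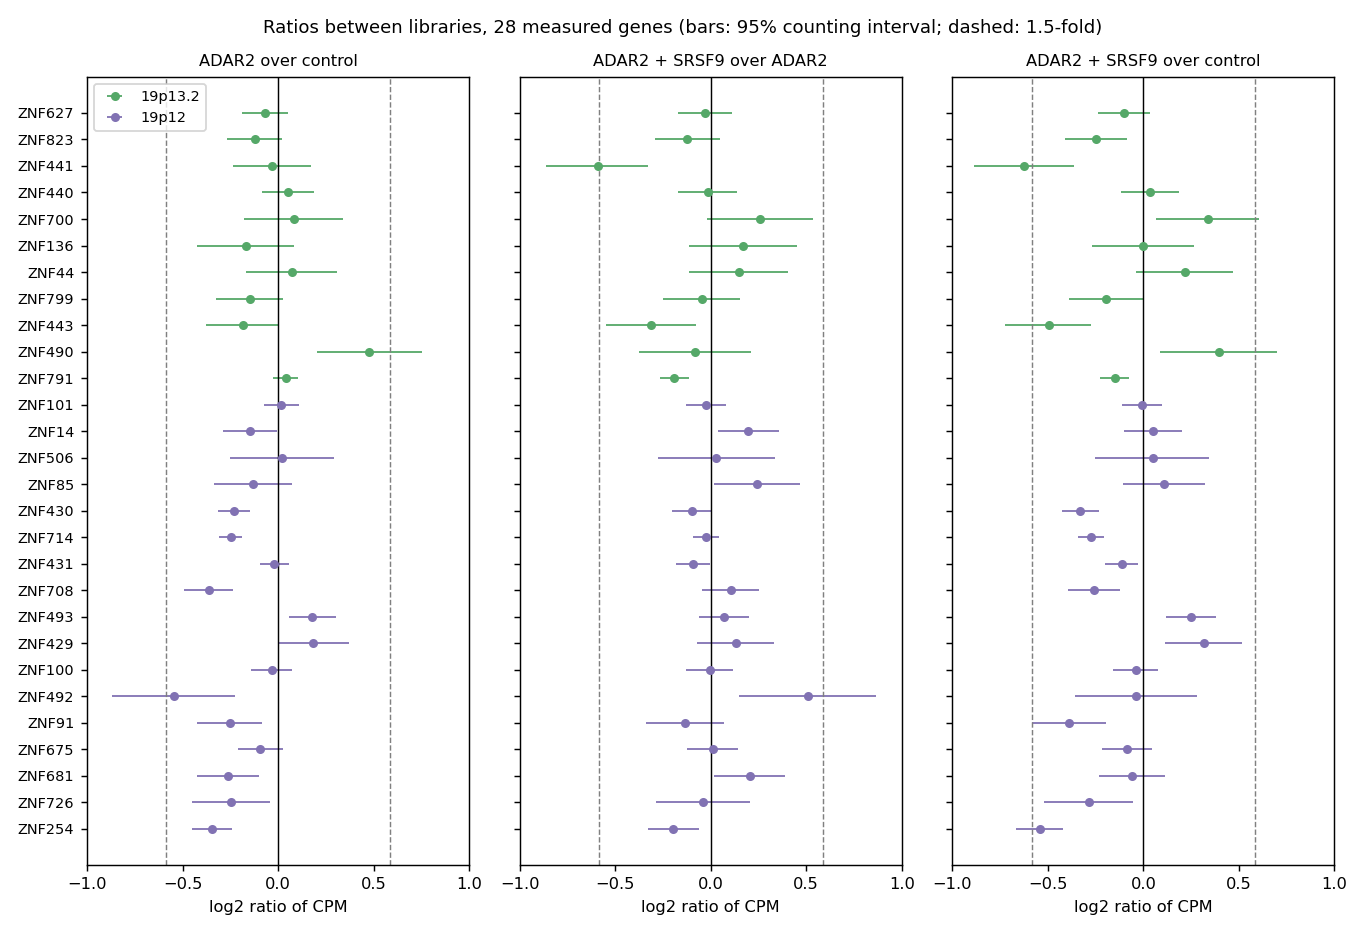
Log2 ratio of CPM for the 28 measured members in the 3 comparisons, with bars for the 95% counting interval and dashed lines at 1.5-fold. In the ADAR2 over control panel the intervals wholly below 0 belong to 19p12 genes, which have the higher median level and so narrower intervals. ZNF441 is the only gene past a dashed line in the other panels.

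The ratios of the members to the control went along with base composition, and medians are given with and without the GC trend. Among genes with a mean of 10 CPM or more, log2 ratios of ADAR2 to control depended on the GC content of the transcript. Their median was -0.17 in the lowest of 10 equal groups by GC content and 0.18 in the highest. The trend removed here and below was taken from 9594 protein-coding genes at that level, which 6 of the 28 measured members reach. The members are poor in GC, with a median of 39.1% over the measured genes, 37.3% in 19p12 and 42.1% in 19p13.2, against 48.5% over all measured genes and 42.9% over the 19q zinc finger genes. With the trend on GC content removed, the median log2 ratio of ADAR2 to control changed sign and was 0.03 over the members. It was then -0.01 in 19p12, 0.13 in 19p13.2, 0.10 in the 19q genes and 0.12 in the other 19p genes. The median of 19p12 minus that of 19p13.2 was -0.15 with the trend removed, against -0.12 without its removal. These medians rest on 17 and 11 genes. The median half-width of a single member's counting interval was 0.15 in log2 units, which is more than the change between these values. Across the 28 members Spearman's rho between GC content and log2 ratio was 0.50, as a description of genes that share libraries and sequence. After removal of the trend ZNF708 and ZNF254 had log2 ratios of -0.20 and -0.18 and were no longer past a ratio of 5 to 4. ZNF492 was still past it with -0.38, as was ZNF490 with 0.51, and ZNF493 came to lie past it with 0.35. ZNF714 and ZNF91 had -0.09 each. The part of GC content in the ratios was not tested beyond this.

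**Figure D4:**
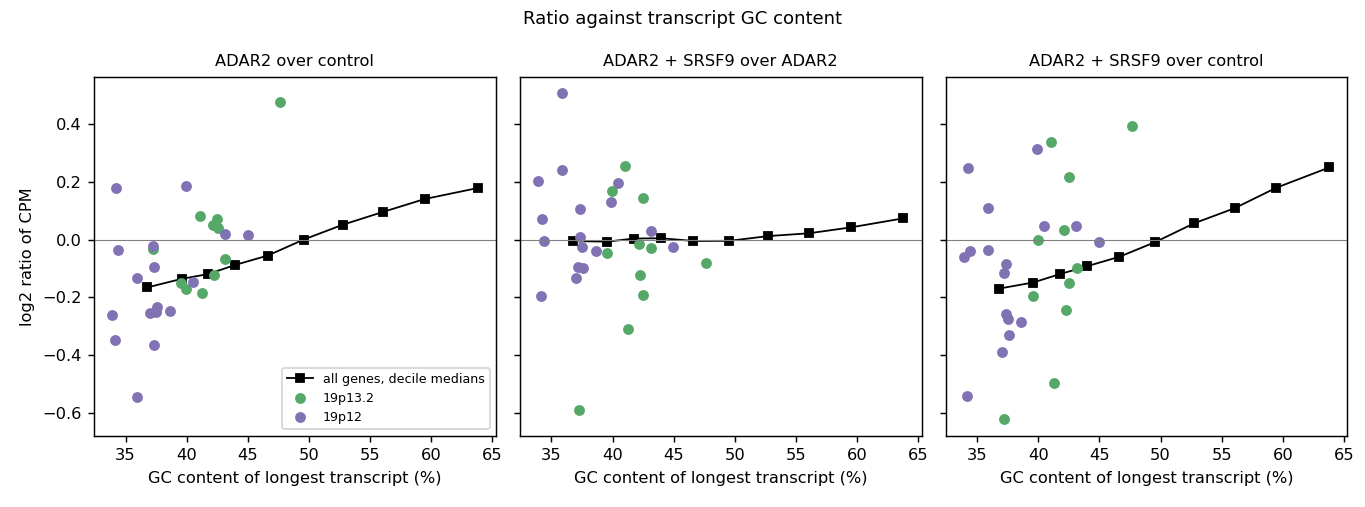
Log2 ratio of CPM against GC content of the longest transcript, with measured members as points by block. Black squares are the medians of 10 equal groups by GC content of genes with a mean of 10 CPM or more. These medians climb with GC content in both comparisons with the control and stay near 0 between the overexpressing libraries. The 19p12 genes sit at the GC-poor end.

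Between the ADAR2 plus SRSF9 library and the ADAR2 library, the members were near balance. Their median log2 ratio was -0.02, against 0.01 over all measured genes, with 0.01 in 19p12 and -0.05 in 19p13.2, and 16 of 28 were below 0, against 46.3% of all genes. Removal of the GC trend gave -0.02 as well. The interval lay wholly below 1 for 5 members (23% of all genes) and wholly above 1 for 4 (27.5% of all genes). At 1.5-fold 1 of 28 members was called, where 3.39% of all genes were called, and at a ratio of 5 to 4 or wider 2 of 28, where 11.1% were called. The 2 were ZNF492, higher (4.12% of all genes), and ZNF441, lower (6.99% of all genes).

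The member past 1.5-fold was ZNF441 of 19p13.2. It had 172 reads, or 0.378 RPKM, in the ADAR2 plus SRSF9 library, 363 reads, or 0.570 RPKM, in the ADAR2 library, and 427 reads, or 0.582 RPKM, in the control library. The ADAR2 and control libraries lay close together and the ADAR2 plus SRSF9 library lay below both. The ratio of ADAR2 plus SRSF9 to ADAR2 was 0.664 (0.550 to 0.798), a log2 ratio of -0.59, and the ratio to control was 0.649 (0.541 to 0.777), a log2 ratio of -0.62. Both intervals reach across the 1.5-fold line. With the GC trend removed the log2 ratios were -0.58 and -0.45 and neither passed 1.5-fold, and with a prior count of 5 the log2 ratio to ADAR2 was -0.58 as well. Of the 50-base words of its longest transcript, 0.023% occur unchanged in GENCODE v29 transcripts of another gene. Reads that align with mismatches were not examined.

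Other members of 19p13.2 were lower in the ADAR2 plus SRSF9 library by less. ZNF443 had 0.890 RPKM in the ADAR2 plus SRSF9 library, 1.10 in the ADAR2 library and 1.26 in the control library, and its log2 ratios were -0.31 to ADAR2 and -0.50 to control. ZNF791, the highest gene of the block, had 2303 reads in the ADAR2 plus SRSF9 library, 3680 in the ADAR2 library and 4120 in the control library, with log2 ratios of -0.19 to ADAR2 and -0.15 to control. ZNF700 lay the other way, with 0.638 RPKM in the ADAR2 plus SRSF9 library, 0.534 in the ADAR2 library and 0.505 in the control library, and a log2 ratio to control of 0.34. In 19p12, ZNF254 was lower again, with 755 reads in the ADAR2 plus SRSF9 library and a log2 ratio to ADAR2 of -0.20, and ZNF431 stood at -0.09, whereas ZNF14, ZNF85 and ZNF681 were higher, with log2 ratios of 0.20, 0.24 and 0.20. ZNF492 had the highest ratio, with 133 reads in the ADAR2 plus SRSF9 library against 131 with ADAR2 alone, and a ratio of 1.42 (1.11 to 1.82). Since its ratio of ADAR2 to control was low, its level in the ADAR2 plus SRSF9 library, 0.327 RPKM, was close to the 0.336 RPKM of the control library.

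Against the control, the ADAR2 plus SRSF9 library showed a median log2 ratio of -0.07 over the 28 members, against -0.01 over all measured genes, with -0.06 in 19p12 and -0.10 in 19p13.2. This comparison shares a library with each of the other comparisons, so its values are no separate evidence. Of the members, 19 of 28 were below 0, against 51.0% of all genes, and removal of the GC trend gave a median of 0.08. At 1.5-fold 1 member was called, ZNF441, where 3.99% of all genes were called. At a ratio of 5 to 4 or wider 7 members were called, where 18.8% of all genes were called, with 5 lower (9.21% of all genes) and 2 higher (9.56% of all genes). The 5 lower members were ZNF441, ZNF254, ZNF443, ZNF91 and ZNF430, with log2 ratios of -0.62, -0.54, -0.50, -0.39 and -0.33. The 2 higher members were ZNF490 and ZNF700, with 0.39 and 0.34. With the GC trend removed, ZNF91 and ZNF430 had -0.22 and -0.16 and were no longer past a ratio of 5 to 4, while ZNF429, ZNF493 and ZNF44 came to lie past it with 0.46, 0.43 and 0.33. Over genes with a mean of 10 CPM or more the median log2 ratio in this comparison ran between -0.17 and 0.25. These were the lowest and the highest of the 10 groups by GC content. The interval lay wholly below 1 for 12 members (35.3% of all genes) and wholly above 1 for 4 members (33.4% of all genes). ZNF254 had 1.04 RPKM in the ADAR2 plus SRSF9 library, 1.19 in the ADAR2 library and 1.51 in the control library. Its log2 ratio to control was -0.59, past 1.5-fold, when plain library totals replaced TMM, and -0.37 with the GC trend removed. ZNF429 and ZNF493, next to each other in the block, were the higher ones in 19p12, with log2 ratios of 0.32 and 0.25.

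Some of these counts cannot be assigned to 1 gene with certainty, because copies within a block share long stretches. ZNF492 and ZNF98 share 61.9% of the 50-base words in the coding sequence of ZNF492, with a longest common run of 417 bases. ZNF443 and ZNF799 share 31.5% of those of ZNF443, with a longest run of 174 bases. For each pair, finger units are shown that differ least without being identical, so other units can differ more. The capitals mark the 1 base at which the shown units differ.
ZNF492: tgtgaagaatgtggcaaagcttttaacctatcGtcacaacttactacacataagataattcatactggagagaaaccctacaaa
ZNF98: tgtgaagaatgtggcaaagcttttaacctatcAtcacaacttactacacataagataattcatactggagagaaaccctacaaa
ZNF443: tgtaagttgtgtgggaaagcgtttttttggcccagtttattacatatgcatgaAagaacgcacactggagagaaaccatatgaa
ZNF799: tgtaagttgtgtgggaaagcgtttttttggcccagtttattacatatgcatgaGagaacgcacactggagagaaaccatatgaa
ZNF98, under the filter, had 22 reads in the ADAR2 plus SRSF9 library, 30 in the ADAR2 library and 49 in the control library, and its ratio of ADAR2 to control, 0.705, had an interval of 0.432 to 1.13, which includes 1. ZNF799 had 340 reads in the ADAR2 plus SRSF9 library, 492 in the ADAR2 library and 628 in the control library, with a log2 ratio of ADAR2 plus SRSF9 to control of -0.20, against -0.50 for ZNF443. Without the 4 measured members that share at least 25% of their words or exon bases with other genes, the median log2 ratio of ADAR2 to control over the other 24 was -0.08.

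A short stretch of upstream sequence was common to both blocks. RefSeq promoter windows on GRCh38.p14, from 250 bases before the gene start to 50 bases after it, were matched for 50 of the 56 symbols, and ZNF253, ZNF506, ZNF676, ZNF763, ZNF98 and ZNF99 were not matched. The 250 bases before the start are shown for a well expressed gene, a known retrotransposon repressor and the gene with the largest ratio, with the letters CCAAT in capitals. They lie at chr19:21081953-21082202 on the plus strand for ZNF714, chr19:23395472-23395721 on the minus strand for ZNF91 and chr19:11766750-11766999 on the plus strand for ZNF441.
ZNF714: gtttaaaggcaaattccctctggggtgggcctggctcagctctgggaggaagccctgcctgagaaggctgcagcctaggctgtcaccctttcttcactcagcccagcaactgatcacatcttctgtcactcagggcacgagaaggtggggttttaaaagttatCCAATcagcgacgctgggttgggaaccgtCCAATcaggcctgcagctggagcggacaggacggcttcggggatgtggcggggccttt
ZNF91: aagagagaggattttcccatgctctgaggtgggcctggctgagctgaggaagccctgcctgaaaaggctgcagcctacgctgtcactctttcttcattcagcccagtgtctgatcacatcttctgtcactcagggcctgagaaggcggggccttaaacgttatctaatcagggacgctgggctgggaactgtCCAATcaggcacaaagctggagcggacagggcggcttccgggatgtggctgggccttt
ZNF441: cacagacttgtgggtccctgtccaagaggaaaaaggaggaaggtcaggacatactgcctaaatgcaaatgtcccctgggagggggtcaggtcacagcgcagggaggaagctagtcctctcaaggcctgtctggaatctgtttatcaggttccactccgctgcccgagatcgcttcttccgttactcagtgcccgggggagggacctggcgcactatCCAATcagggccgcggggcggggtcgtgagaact
ZNF714 and ZNF91, both of 19p12, were identical at 85.2% of the 250 bases when aligned with gaps. ZNF441 of 19p13.2 was identical to ZNF714 at 59.2% and to ZNF91 at 60.4%. No unrelated windows were aligned, so these lower values do not show shared sequence between the blocks. In all 3 windows a CCAAT lies within the last stretch before the start and goes on as CCAATCAG.

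Searched on both strands (ATTGG on the other strand), CCAAT occurred in 49 of 50 member windows, or 98.0%, against 35.7% of the 27305 promoter windows of the table. ZNF799 was the exception. The longer CCAATCAG motif, which contains CCAAT and was likewise searched on both strands, occurred in 48 of 50, or 96.0%, against 4.16% of all windows. It was present in 2.21% of 136 windows of other zinc finger genes on 19q, in 26.1% of 23 other windows on 19p and in 13.0% of 192 on other chromosomes. Member windows without it belonged to ZNF44 and ZNF799. CCAAT on the strand of the gene was found before the start in 48 members, and its last copy began a median of 57 bases before the start (quartiles 52 and 63). These letters were chosen after the sequences had been seen, and the windows of tandem copies are not independent. CCAAT was found in 26 of 27 measured members and in 23 of 23 under the filter, so its presence, being near complete, cannot be compared with level. The letters TATAAA, also searched as the other strand reads, occurred in 3 of 50 member windows, or 6.0%, against 3264 of the 27305. The member windows had a median GC content of 57.2%, close to the 58.3% of all windows and unlike the GC-poor transcripts.

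The genes of proteins through which KRAB zinc finger proteins act were well expressed and differed by small ratios. All 26 genes of a list of KRAB corepressors and heterochromatin proteins were measured, and 0 were past 1.5-fold in any comparison. Of all genes, 1.26% were called for ADAR2 to control, 3.39% for ADAR2 plus SRSF9 to ADAR2 and 3.99% for ADAR2 plus SRSF9 to control. For ADAR2 to control the interval lay wholly above 1 for 9 of the list (31.5% of all genes) and wholly below 1 for 15 (32.4%). Their median log2 ratios were -0.06 for ADAR2 to control, 0.02 for ADAR2 plus SRSF9 to ADAR2 and -0.05 for ADAR2 plus SRSF9 to control. TRIM28 had 634.7 CPM in the ADAR2 plus SRSF9 library, 604.3 in the ADAR2 library and 537.6 in the control library, with a log2 ratio of ADAR2 plus SRSF9 to control of 0.24. Its transcript has 63.7% GC, and the highest GC group of all genes, with a median of 63.8% GC, had a median log2 ratio of 0.25 there. The GC trend was not removed for the single genes of this list. SETDB1 had 61.9 CPM in the ADAR2 plus SRSF9 library, 58.2 in the ADAR2 library and 62.6 in the control library, and was higher in neither overexpressing library. ZNF274, which is known to bind the 3′ ends of zinc finger genes, had 28.4 CPM in the ADAR2 plus SRSF9 library, 35.2 in the ADAR2 library and 29.6 in the control library. It stood apart in the ADAR2 library, with log2 ratios of 0.25 for ADAR2 to control and -0.31 for ADAR2 plus SRSF9 to ADAR2. The largest ratio of ADAR2 to control was that of ATF7IP, a partner of SETDB1, with a log2 ratio of -0.31. The largest of ADAR2 plus SRSF9 to control was that of CBX5, which encodes HP1 alpha, with 234.6 CPM in the ADAR2 plus SRSF9 library, 266.5 in the ADAR2 library and 319.4 in the control library and a log2 ratio of -0.45. It was the only gene of the list past a ratio of 5 to 4 in any comparison. Of all genes, 8.36%, 11.1% and 18.8% were called at that ratio, in the order of comparisons given above.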

How the data were processed

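The RNA libraries of HEK293T cells number 3, with 1 in each group (the cell line field of the labels gives HEK 293T, the sample titles HEK293). What the authors deposited is a table of raw gene counts, whole numbers without normalisation, over 57268 identifiers with symbols. Libraries were made with a strand-marking kit per the labels' protocols. Per the submitters' processing notes the build was hg19 and the tools were STAR, Picard, GATK and SAMtools; the sources used here give neither their roles nor the counting program or its use of strand. Counts of genes that overlap, on either strand, may therefore contain reads of each other. The columns were matched to the labels by library code.

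Normalisation used the TMM method of edgeR 4.0.16 under R 4.3.3. The factors were 0.979 for ADAR2 plus SRSF9, 1.01 for ADAR2 and 1.01 for control. Before log2 ratios were taken, 0.5 counts, adjusted for library size, were added, and 95% intervals were exact Clopper-Pearson intervals of one library's share of both libraries' reads. A gene was called when its mean was 1 CPM or more, its ratio passed the fold and its interval excluded 1. No gene was tested, since each group has 1 library. Scripts ran in Python 3.11.15 (scipy 1.17.1, pandas 2.3.3, numpy 2.4.6, matplotlib 3.10.9), and DESeq2 1.42.0 gave alternative size factors. The scripts were tested on simulated data.

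Exon lengths, GC content, overlaps and shared 50-base words came from GENCODE v29 on GRCh38, which is not the authors' build, matched on the identifier without its version (all 58 member identifiers). Promoter windows came from RefSeq on GRCh38.p14. The finger count was planned on RefSeq proteins and was made on translated GENCODE coding sequence. The members named were, in each block, the 5 highest in mean RPKM, those past 1.5-fold, and the 2 highest and 2 lowest ratios with an interval excluding 1 in each comparison. Other members were named after their values were seen, as were those with few reads. The members and lists were chosen with earlier results of these data known. The result of 1 marker gene of the blood list is not reported here.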

Additional observations from a re-analysis of the deposited data

How the results depend on the processing

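No paired analysis was possible because each group has 1 library. Depth limits what the members can show: 30 of the 58 identifiers lie under 1 CPM, and the ratios compare 3 libraries without replicates. The count of members called depended on the settings. In the order ADAR2 to control, ADAR2 plus SRSF9 to ADAR2, ADAR2 plus SRSF9 to control, it was 0, 1 and 1 as reported, 5, 7 and 6 without a filter on low counts, and 4, 2 and 7 at a ratio of 5 to 4 or wider. It was 0 for both comparisons of the ADAR2 plus SRSF9 library at a mean of 10 CPM or more, with the GC trend removed, or with the interval required to lie wholly beyond 1.5-fold. With a prior count of 5 it was 0 for ADAR2 plus SRSF9 to ADAR2, and with plain library totals 2 for ADAR2 plus SRSF9 to control. The median log2 ratio over the members ranged over 9 alternatives from -0.12 to 0.03 for ADAR2 to control, from -0.06 to -0.01 for ADAR2 plus SRSF9 to ADAR2 and from -0.13 to 0.08 for ADAR2 plus SRSF9 to control, with the positive values from removal of the GC trend. The difference between the medians of 19p12 and 19p13.2 for ADAR2 plus SRSF9 to control was 0.04 as reported and -0.13 without a filter. The corepressor median was -0.0112 with the GC trend removed for ADAR2 to control, and with plain library totals -0.0264 for ADAR2 plus SRSF9 to ADAR2 and -0.10 for ADAR2 plus SRSF9 to control. Leaving out members that share reads or exons was chosen after seeing the data. The causes of these shifts were not tested.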
